A study of Mus musculus with 2 samples.

Results

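The chromatin of 9 genes tied to the self-renewal of nephron progenitors was measured in kidneys of mouse embryos with and without a Wilms tumour mutation of the chromatin reader ENL. The genes were Six2, Eya1, Cited1, Osr1, Sall1, Meox1, Uncx, Crym and Itga8, which are 9 of the 21911 protein-coding genes of the annotation used. Each locus was taken as the gene body plus 2000 bp upstream in GENCODE M21 on mm10 (GRCm38). The peak list of Enl-WT had 54 peaks at these loci out of 159560, and that of Enl-T1 had 41 out of 130027. Where peaks of both libraries overlapped they were joined into shared regions, of which the 9 loci held 35 out of 110706. Peaks without a partner in the other library were left out of the sums below. They were 19 of the 54 Enl-WT peaks and 6 of the 41 Enl-T1 peaks at these loci, where 30% of all Enl-WT peaks and 13.4% of all Enl-T1 peaks had none.

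Accessibility was read with snATAC-seq, a single-nucleus assay that counts, nucleus by nucleus, the cuts a transposase makes where chromatin is open. There was 1 library in each group, made from whole kidneys at E15.5. By the study, Enl-T1 embryos were Enl flox-T1/+; Wt1 GFPCre/+, so that one Enl allele was switched to a form with 3 inserted amino acids wherever Cre was active, and Enl-WT embryos were Enl +/+; Wt1 GFPCre/+. The Cre is expressed from the Wt1 gene, acts in the nephron and stromal lineages, and inactivates one Wt1 allele in both groups alike. The sex of the embryos was not determined, and the sources used here do not say how many embryos were pooled for each library. With 1 library a group no test of the mutation was possible, and all intervals below are 95% intervals for counting error only. A difference between the libraries therefore cannot be told apart from a difference between embryos or preparations.

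Nephron progenitors sit in the cap mesenchyme around each ureteric bud tip, where they either renew themselves or commit to form an epithelial vesicle. Six2 is the transcription factor that holds them in the renewing state, Eya1 is its coactivator and a phosphatase, and Osr1 and Sall1 are zinc-finger factors that act with it. Cited1 is a coactivator without DNA-binding activity and marks the least committed progenitors. Meox1 and Uncx are homeodomain factors of the cap mesenchyme, Crym is a thyroid hormone-binding protein found in the same cells, and Itga8 is the integrin chain through which the metanephric mesenchyme reads nephronectin from the bud.

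After barcodes with 2000 to 100000 counts were kept, Enl-WT had 9472 nuclei with a median of 14789.5 counts and Enl-T1 had 12635 with a median of 8753. Nuclei were clustered without the 9 loci and their flanks of 100 kb, and clusters were named from marker lists that held none of the 9 genes. In total, 149 barcode sequences occurred among the nuclei of both libraries. The nephron progenitor-like class held 2250 nuclei of Enl-WT against 4164 of Enl-T1, and they lay in different clusters. Of the Enl-WT nuclei 1225 were in cluster 4 and 1011 in cluster 10, while of the Enl-T1 nuclei 2895 were in cluster 0 and 1153 in cluster 5. In these nuclei all 10 progenitor markers had counts in both libraries, and their summed level was 942 counts scaled to the shared-region total of the class (CPM) in Enl-WT and 816 CPM in Enl-T1. The 9 early nephron epithelium markers summed to 461 and 524 CPM. Marker lists of other lineages were not at 0. The 8 interstitial stroma markers summed to 425 and 406 CPM against 740 and 730 CPM in stroma-like nuclei, and the 8 endothelial markers to 261 and 236 CPM against 1299.6 and 1175 CPM in endothelial-like nuclei. Markers listed at 0 in both libraries included Slc5a12 of the proximal tubule list, Fcer1g of the immune list, Gata1, Hbb-bs, Hba-a1 and Alas2 of the erythroid list, and Sox10 of the neural list. Only shared regions were summed, so a gene without one at its locus is at 0 in every class. Whether these genes had one was not examined, and their 0 does not show that signal of those cell types was absent. The part of signal from other lineages in the values below was not tested.

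**Figure D1:**
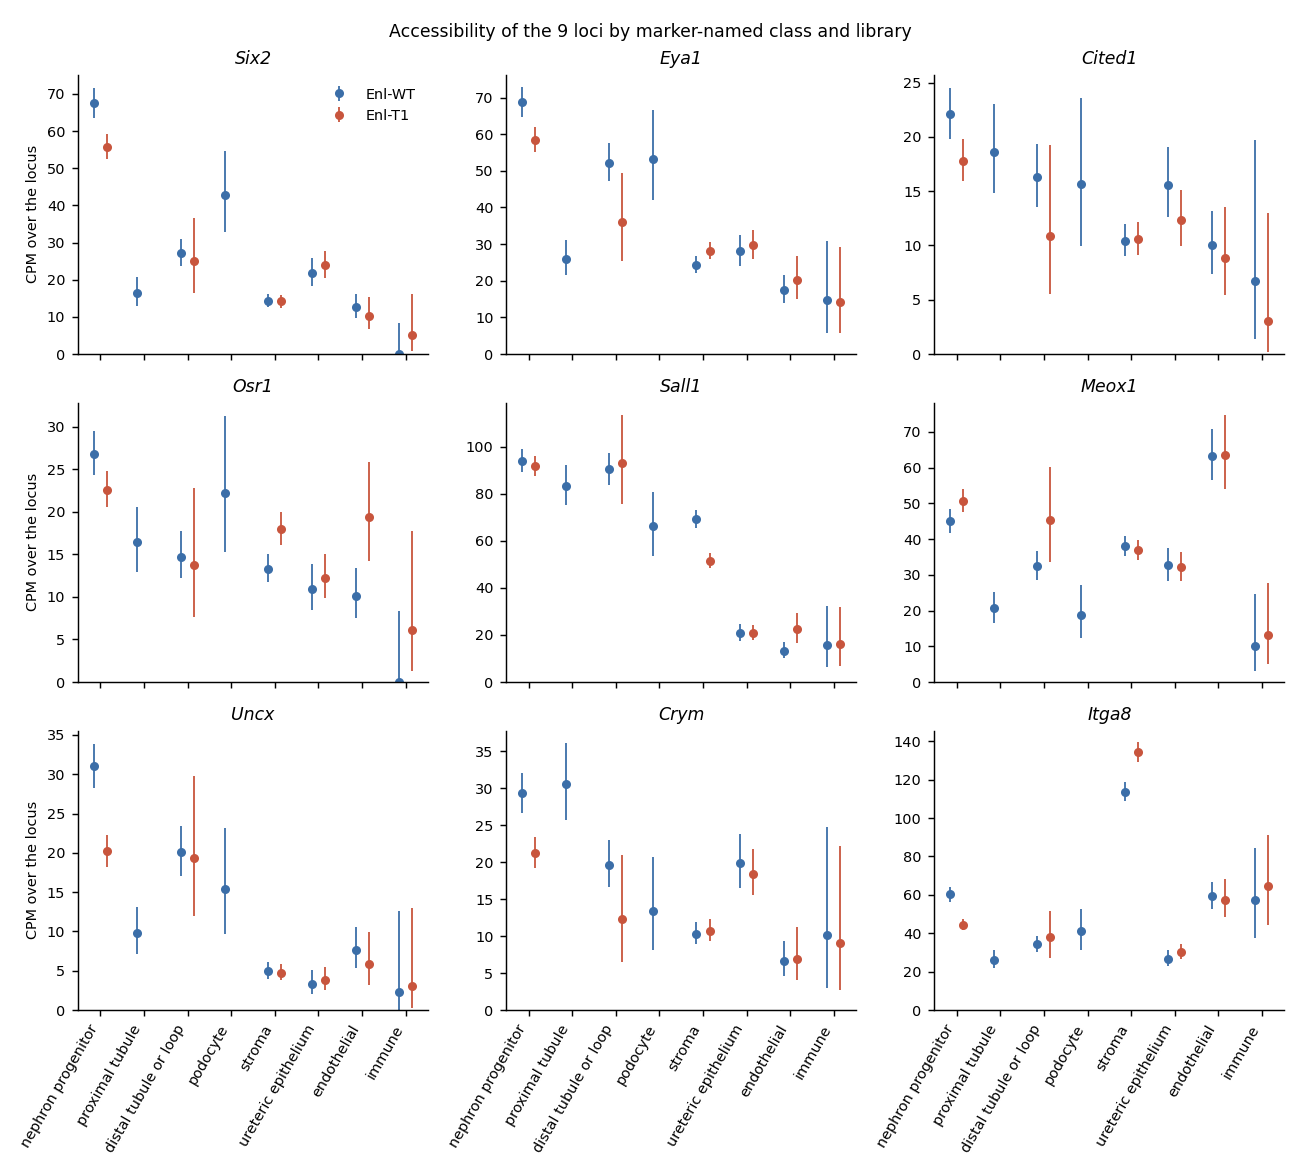
CPM over each of the 9 loci (y axis, linear from 0) in marker-named classes of nuclei (x axis) for Enl-WT (blue) and Enl-T1 (red), 1 library each. Bars are 95% counting intervals, and a class with fewer than 50 nuclei in a library has no point. In Enl-WT 6 of the 9 loci were highest in nephron progenitor-like nuclei, while Meox1 was highest in endothelial-like, Crym in proximal tubule-like and Itga8 in stroma-like nuclei. Of the 6, only Six2 and Uncx had intervals clear of the next class, and those of Eya1, Cited1, Osr1 and Sall1 overlapped it.

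Six2, on the minus strand at chr17:85684277-85688274, carried 1 shared region, which spanned its start site. In nephron progenitor-like nuclei this region had 2122 counts in Enl-WT, or 67.4 CPM (interval 63.4 to 71.6), and 2161 counts in Enl-T1, or 55.7 CPM (52.4 to 59.1). The intervals did not overlap, and the log2 ratio of Enl-T1 to Enl-WT was -0.28 (interval -0.40 to -0.15). In Enl-WT the next class was podocyte-like at 42.7 CPM, with an interval that overlapped neither neighbour in the order, followed by distal tubule- or loop-like nuclei at 27.1 CPM. Below these came the ureteric epithelium- (21.9 CPM), proximal tubule- (16.5 CPM), stroma- (14.2 CPM) and endothelial-like (12.7 CPM) levels, each with an interval that overlapped the one listed beside it. Summed over all nuclei of a library, Six2 stood at 31.5 CPM in Enl-WT and 31.7 CPM in Enl-T1, in libraries where progenitor-like nuclei made up 23.8% and 33.0% of nuclei.

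Around Six2 the flanking regions differed in sign. A region 60.3 kb upstream, where a distal enhancer of Six2 is known, had 66.0 CPM in progenitor-like nuclei of Enl-WT and 74.9 CPM in those of Enl-T1, a log2 ratio of 0.18 (0.07 to 0.30). It had 5.76 CPM in stroma-like and 4.29 CPM in endothelial-like nuclei of Enl-WT. The nearest flanking region, 2.80 kb upstream, went the other way, with 29.5 CPM in Enl-WT and 20.1 CPM in Enl-T1 (log2 ratio -0.55, -0.75 to -0.36). Over the Six2 flank as a whole, 7 of 10 regions with at least 200 counts were below 0 and 3 above, with a median of -0.13. The distal region and the bases just before the start site are shown because CPM differed in opposite directions there, without scaling to peak width. The called width of the distal region was 789 bp for Enl-WT but 1045 bp for Enl-T1. That of the start-site region was 1091 and 1002 bp. At the distal region the width differed by a larger factor than the CPM, so per kb of peak it was lower in Enl-T1. The start-site region stayed lower per kb of peak, at a log2 ratio of -0.15. The opposite directions thus held only for CPM without scaling to width. Sequences are written 5′ to 3′ on the strand of the gene, from GRCm38.p6, and capitals mark matches to the motif letters searched. The first is from the RefSeq promoter table, without bases annotated as transcribed, and lies at chr17:85688275-85688504 (minus strand), and the second is the centre of the distal region at chr17:85748431-85748730 (minus strand).
Six2 start site: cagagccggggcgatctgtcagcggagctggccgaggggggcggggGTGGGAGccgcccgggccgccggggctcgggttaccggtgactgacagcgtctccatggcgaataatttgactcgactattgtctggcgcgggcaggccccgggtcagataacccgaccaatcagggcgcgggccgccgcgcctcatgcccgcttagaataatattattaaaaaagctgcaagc
Six2 distal region: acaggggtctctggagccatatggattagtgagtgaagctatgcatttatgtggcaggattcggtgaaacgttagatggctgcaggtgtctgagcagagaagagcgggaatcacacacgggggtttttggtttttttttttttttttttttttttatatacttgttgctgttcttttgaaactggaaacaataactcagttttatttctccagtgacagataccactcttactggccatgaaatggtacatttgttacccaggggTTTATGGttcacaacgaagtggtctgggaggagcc
The capitals mark the WT1 letters CTCCCAC, on the other strand, in the first and the posterior HOX letters CCATAAA, also on the other strand, in the second.

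Cited1, on the minus strand at chrX:102247381-102252181, also carried 1 shared region, at its start site. Progenitor-like nuclei had 695 counts or 22.1 CPM (19.8 to 24.5) in Enl-WT and 691 counts or 17.8 CPM (15.98 to 19.8) in Enl-T1. The log2 ratio was -0.31 (-0.53 to -0.09). In Enl-WT Cited1 had 18.6 CPM in proximal tubule-like and 10.4 CPM in stroma-like nuclei, and the intervals of its 5 highest classes overlapped from one to the next. Because Cited1 is X-linked, the sex chromosomes were compared. The X chromosome took 1.49% of counts for Enl-WT but 1.5% for Enl-T1, the Y chromosome 0.0113% in both, and the median log2 ratio of 509 X-linked genes in progenitor-like nuclei was 0.04. Of 5 flanking regions with at least 200 counts 2 were past 1 log2, and they were named after their values were seen. They lay 96.8 kb upstream, within Hdac8, with 9.76 CPM in Enl-WT and 3.22 CPM in Enl-T1 (log2 ratio -1.60, -2.05 to -1.17), and 59.8 kb downstream, with 6.23 and 2.63 CPM (-1.24, -1.76 to -0.74). The RefSeq promoter bases at chrX:102252182-102252431 (minus strand) are shown as the upstream edge of the Cited1 region.
Cited1 start site: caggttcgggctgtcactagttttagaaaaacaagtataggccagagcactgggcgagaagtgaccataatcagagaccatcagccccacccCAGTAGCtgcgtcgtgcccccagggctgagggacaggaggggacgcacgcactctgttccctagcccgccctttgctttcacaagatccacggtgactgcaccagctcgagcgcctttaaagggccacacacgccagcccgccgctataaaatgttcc
The capitals mark the OSR letters CAGTAGC.

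Eya1, on the minus strand at chr1:14168954-14310235, was spread over 7 shared regions. Summed over them, progenitor-like nuclei had 68.7 CPM (64.7 to 72.9) in Enl-WT and 58.5 CPM (55.1 to 62.0) in Enl-T1, giving a log2 ratio of -0.23 (-0.35 to -0.11). This sign turned with the peaks counted, to 0.06 with regions matched at 80% overlap, 0.12 with all peaks of each library and 0.05 per kb of peak. The regions of Eya1 differed among themselves. The start-site region had 18.4 CPM in Enl-WT and 17.3 CPM in Enl-T1, with an interval that covered 0 (-0.09, -0.32 to 0.14). A region 5.49 kb inside the gene, at the start of another transcript, had the lowest ratio, with 15.96 and 10.3 CPM (-0.63, -0.90 to -0.35). Its called width was 753 bp for Enl-WT but 552 bp for Enl-T1. Enl-T1 also had peaks without a partner 4664 and 6971 bp inside the gene, with 889 and 382 counts over all nuclei. These were left out of the sums. The highest ratio lay 130.5 kb inside the gene, over an exon, with 6.55 CPM in Enl-WT and 8.84 CPM in Enl-T1 (0.43, 0.07 to 0.80). In Enl-WT podocyte-like nuclei had 53.3 CPM at Eya1, with an interval that overlapped the progenitor-like one, and distal tubule- or loop-like nuclei had 52.1 CPM.

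Osr1, on the plus strand at chr12:9570116-9581500, carried 2 shared regions with nearly equal ratios. The locus had 26.8 CPM (24.3 to 29.4) in progenitor-like nuclei of Enl-WT and 22.6 CPM (20.5 to 24.8) in those of Enl-T1, a log2 ratio of -0.25 (-0.44 to -0.05). At the start site the ratio was -0.23 (-0.59 to 0.13), and 4.39 kb downstream, at the start of another transcript, it was -0.25 (-0.49 to -0.02). Stroma-like nuclei went the other way at Osr1, with 13.3 CPM in Enl-WT and 18.0 CPM in Enl-T1 (0.43, 0.19 to 0.68). Part of the Osr1 start-site region also covers the gene 1700022H16Rik, and the counts do not tell these apart.

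Sall1, on the minus strand at chr8:89027235-89044162, had the ratio nearest to 0 of the 9 loci in progenitor-like nuclei. It had 94.0 CPM (89.3 to 99.0) in Enl-WT and 91.9 CPM (87.7 to 96.3) in Enl-T1, and the log2 ratio was -0.03 (-0.13 to 0.07). Its start-site region stood at -0.06, its lowest region, 6.39 kb inside the gene, at -0.13, and its highest, 1.31 kb inside, at 0.03, all with intervals that covered 0. In stroma-like nuclei Sall1 had 69.1 CPM in Enl-WT and 51.6 CPM in Enl-T1, giving a log2 ratio of -0.42 (-0.54 to -0.30), and its start-site region had 33.1 and 22.9 CPM there (-0.53). In Enl-WT its progenitor-like level did not differ beyond counting error from the distal tubule- or loop-like level of 90.4 CPM.

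Meox1, on the minus strand at chr11:101877510-101894374, was the 1 locus with a higher level in progenitor-like nuclei of Enl-T1. It had 45.1 CPM (41.8 to 48.5) in Enl-WT and 50.7 CPM (47.6 to 54.0) in Enl-T1, giving a log2 ratio of 0.17 (0.03 to 0.31). The start-site region of Meox1 did not share this sign, with 22.1 CPM in Enl-WT and 20.1 CPM in Enl-T1 (-0.13, -0.35 to 0.08). Its called width was 1170 bp for Enl-WT but 873 bp for Enl-T1. The width differed by a larger factor than the CPM, so per kb of peak this region was higher in Enl-T1. The other 3 regions of Meox1, all intronic, were higher in Enl-T1, led by one 4.26 kb inside the gene with 7.09 and 10.2 CPM (0.52, 0.18 to 0.87). The called width of that intronic region was 895 bp for Enl-WT but 1296 bp for Enl-T1, and per kb of peak its ratio was -0.01. The contrast of the start site with this region thus held only without scaling to width. Meox1 was highest in endothelial-like nuclei, at 63.4 CPM in Enl-WT and 63.6 CPM in Enl-T1.

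Uncx, on the plus strand at chr5:139543494-139548179, had the lowest ratio of the 9 loci. Its single region, at the start site, had 975 counts or 31.0 CPM (28.3 to 33.9) in progenitor-like nuclei of Enl-WT and 784 counts or 20.2 CPM (18.3 to 22.3) in those of Enl-T1. The log2 ratio was -0.62 (-0.81 to -0.42), and it was the only one of the 9 past 0.5 log2. The called width of the region was 1236 bp for Enl-WT but 903 bp for Enl-T1, and per kb of peak the ratio was -0.16. Over all shared regions the Enl-T1 peaks were also narrower, and the same scaling moved the median of all genes to 0.13. Uncx was at 4.96 CPM in stroma-like and 3.27 CPM in ureteric epithelium-like nuclei of Enl-WT. Of 28 flanking regions with at least 200 counts, the 2 past 1 log2, named after their values were seen, lay 93.6 kb upstream (16.4 and 6.96 CPM, log2 ratio -1.24, -1.55 to -0.93) and 100.3 kb upstream (6.04 and 2.78 CPM, -1.12, -1.63 to -0.62). The 250 bases before the annotated start, at chr5:139543244-139543493 (plus strand), are shown because Uncx alone passed 0.5 log2.
Uncx start site: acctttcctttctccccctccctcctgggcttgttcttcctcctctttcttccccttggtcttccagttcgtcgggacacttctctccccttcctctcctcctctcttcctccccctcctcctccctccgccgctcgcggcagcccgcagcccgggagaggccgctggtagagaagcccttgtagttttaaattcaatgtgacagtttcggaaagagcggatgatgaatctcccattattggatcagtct
None of the motif letters searched were in these bases, while the centre of the region, which reaches past the start, held posterior HOX letters.

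Crym, on the minus strand at chr7:120186380-120202111, carried 2 shared regions. Its locus had 29.3 CPM (26.7 to 32.1) in progenitor-like nuclei of Enl-WT and 21.2 CPM (19.2 to 23.4) in those of Enl-T1, a log2 ratio of -0.46 (-0.66 to -0.27). The start-site region of Crym had the lowest ratio of the 9 start sites, with 11.7 and 6.44 CPM (-0.86, -1.20 to -0.52), at called widths of 790 and 740 bp. The other region, 1.75 kb upstream and also over Abca14, stood at 17.6 and 14.8 CPM (-0.25, -0.49 to -0.01). Proximal tubule-like nuclei of Enl-WT had 30.6 CPM at Crym, not different from the progenitor-like level beyond counting error. The 4 flanking regions of Crym with at least 200 counts were all below 0, with a median of -0.70.

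Itga8, on the minus strand at chr2:12106632-12301922, was highest in stroma. Stroma-like nuclei had 114 CPM in Enl-WT and 134 CPM in Enl-T1, against 60.2 CPM (56.5 to 64.2) and 44.5 CPM (41.6 to 47.6) in progenitor-like nuclei. The log2 ratios were 0.24 (0.16 to 0.32) in stroma-like and -0.44 (-0.57 to -0.30) in progenitor-like nuclei, with intervals that did not overlap. Within the gene the difference in progenitor-like nuclei lay near the start. A region 7.59 kb inside the gene, in an intron, had the lowest ratio of any region of the 9 loci with at least 200 counts, with 4.83 CPM in Enl-WT and 1.93 CPM in Enl-T1 (-1.32, -1.93 to -0.74). A region 1.17 kb inside, at another transcript start, had 8.10 and 3.48 CPM (-1.22, -1.67 to -0.78), and one 8.29 kb inside had 346 and 212 counts (-1.01, -1.37 to -0.65). The start-site region differed less (18.9 and 15.3 CPM, -0.31, -0.55 to -0.07), and an intronic region 88.5 kb inside had the highest ratio (2.77 and 3.69 CPM, 0.41, -0.15 to 0.99). Of the 14 shared regions of Itga8, 5 reached 200 counts in progenitor-like nuclei. One 79.99 kb inside fell just short of that minimum, with 55 counts from Enl-WT nuclei against 140 from those of Enl-T1 (1.05, 0.39 to 1.74). The intronic window at chr2:12294185-12294484 and the RefSeq promoter bases at chr2:12301945-12302194 (both minus strand) are shown because the first had the lowest ratio of the locus and the second marks the start. The E030013I19Rik gene overlaps the start of Itga8.
Itga8 intron region: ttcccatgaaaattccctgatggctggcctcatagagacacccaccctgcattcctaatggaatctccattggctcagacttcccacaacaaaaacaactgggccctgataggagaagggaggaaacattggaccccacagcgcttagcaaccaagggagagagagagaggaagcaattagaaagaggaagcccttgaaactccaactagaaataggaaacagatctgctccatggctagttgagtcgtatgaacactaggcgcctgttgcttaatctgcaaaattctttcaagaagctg
Itga8 start site: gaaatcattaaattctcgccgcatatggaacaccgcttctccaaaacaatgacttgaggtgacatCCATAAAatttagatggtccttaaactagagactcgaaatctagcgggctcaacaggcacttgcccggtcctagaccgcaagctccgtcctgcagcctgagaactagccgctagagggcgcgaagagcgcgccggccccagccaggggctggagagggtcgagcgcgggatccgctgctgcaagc
The capitals mark the posterior HOX letters CCATAAA, and the intronic window held none of the letters searched.

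**Figure D2:**
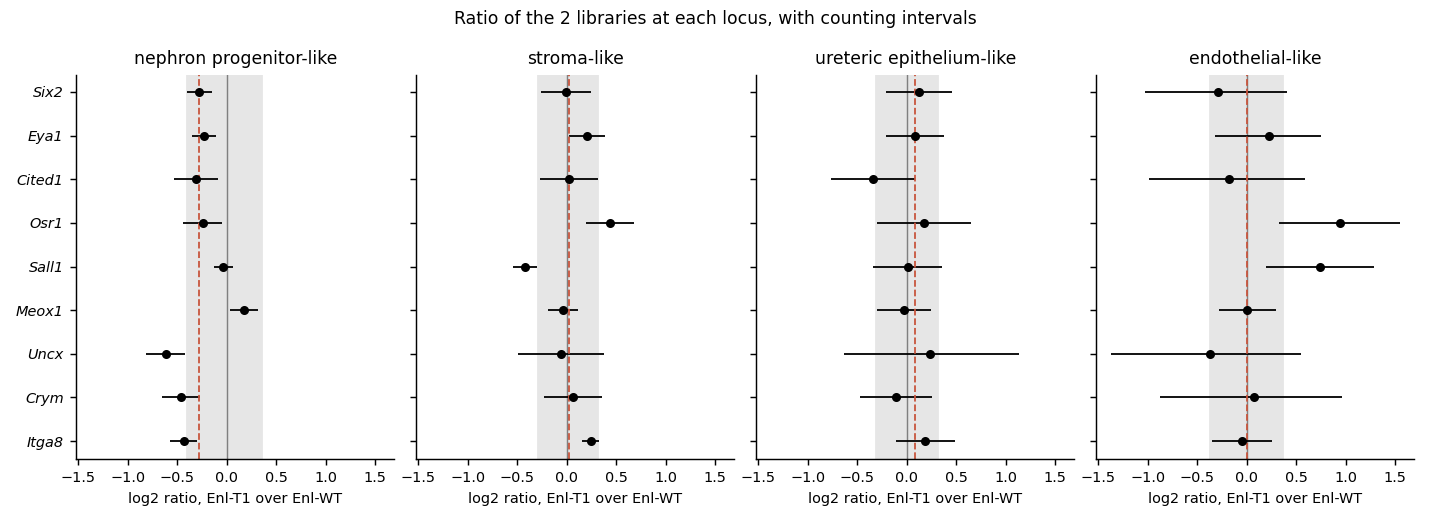
Log2 ratio of Enl-T1 to Enl-WT (x axis) at each locus (y axis) in 4 classes of nuclei, with 95% counting intervals from 1 library a group. The grey band spans the 5th to the 95th percentile of all protein-coding genes with at least 200 counts, and the dashed line is the median of the 9 loci, which lies at -0.28 in nephron progenitor-like nuclei and between 0.01 and 0.09 in the other classes.

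Side by side, 8 of the 9 loci had ratios below 0 in nephron progenitor-like nuclei, and for 7 of them the interval lay below 0. The share of all genes with an interval below 0 was not computed, so the count of 7 has no background to be read against. The median of the 9 ratios was -0.28, while the median of 16345 protein-coding genes with at least 200 counts was 0.00 and 49.4% of those genes were below 0. The middle of the gene distribution ran from -0.41 at the 5th to 0.35 at the 95th percentile. Only Uncx, Crym and Itga8 lay outside that span. Counting by size, 1 of the 9 was lower by 0.5 log2 or more, where 3.16% of all genes were, and 0 of the 9 were higher by as much, where 2.25% of all genes were. All 9 start-site regions were below 0, whereas 44.2% of 12721 start-site regions of all genes with at least 200 counts were. Under some alternatives 5 of these were above 0, namely Meox1 in 4 of 15 (up to 1.58), Cited1 in 3 of 16 (up to 0.47), Sall1 in 3 of 16 (up to 0.03), and Six2 (0.03) and Crym (0.14) in 1 of 16 each. Of 25 regions of the 9 loci with at least 200 counts, 18 were below 0, with a median of -0.23 against 0.00 for all regions. The 3 that were lower by 1 log2 or more all belonged to Itga8, where 3.92% of 76372 regions were as low, and 0 were higher by 1 log2, where 4.56% were. Under settings that left Enl-WT cluster 4 out of the class the median lay nearer 0, between -0.16 and 0.02. Scaled per kb of called peak it was -0.13, against 0.13 for all genes.

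Levels of different genes were compared per kb of shared peak. In progenitor-like nuclei of Enl-WT Six2 was highest at 61.8 CPM per kb, followed by Sall1 at 42.1, Uncx at 25.1 and Cited1 at 19.3 CPM per kb. Osr1 (13.9), Crym (13.2), Meox1 (11.5), Eya1 (9.22) and Itga8 (4.68 CPM per kb) came after. In Enl-T1 Six2 and Sall1 again led, at 55.6 and 40.9 CPM per kb.

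**Figure D3:**
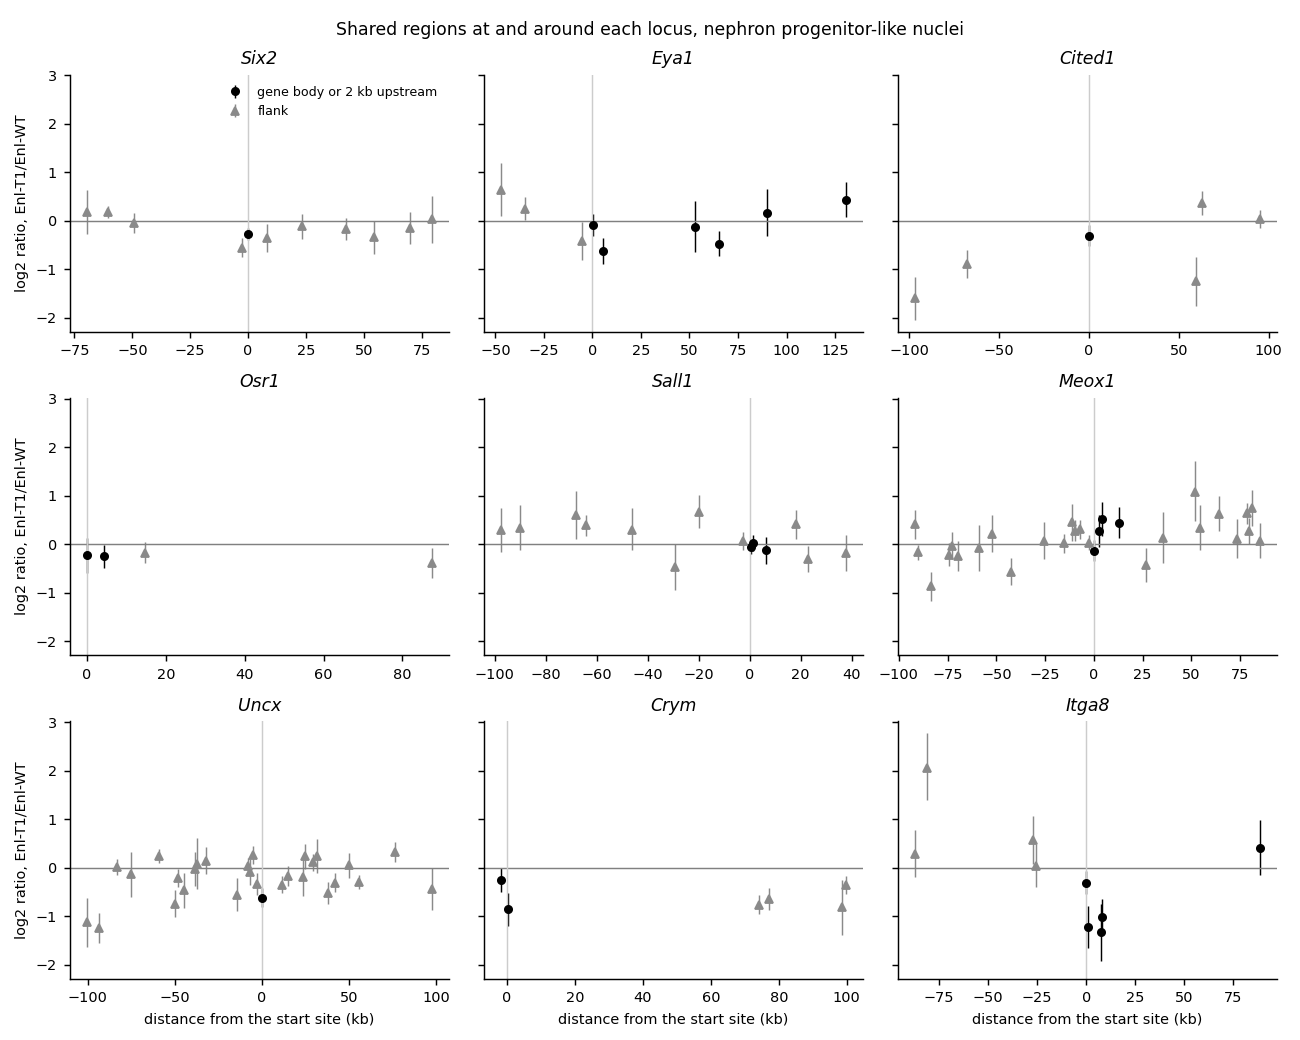
Log2 ratio of Enl-T1 to Enl-WT in nephron progenitor-like nuclei (y axis) of each shared region with at least 200 counts, against its distance from the start site in kb, positive in the direction of transcription (x axis). Black circles are regions of the gene body or 2 kb upstream, grey triangles are flanking regions within 100 kb, and bars are 95% counting intervals. The 3 black circles at or below -1 are regions near the start of Itga8.

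The flanks were described apart from the loci. Of 110 shared regions outside the loci but within 100 kb of a start site 92 had at least 200 counts, and 45 of these were below 0 and 47 above, with a median of 0.01. Past 1 log2 there were 4 lower regions of the 92, those of Cited1 and Uncx given above, and 2 higher ones, beside the 3.92% and 4.56% of all regions. The 4 lower regions were all called narrower in Enl-T1, and none was matched at 80% overlap. In Enl-WT and Enl-T1 the widths were 1332 and 979 bp and 1661 and 861 bp at Cited1. At Uncx they were 957 and 675 bp and 1210 and 634 bp. The higher ones lay 51.8 kb downstream of the Meox1 start (2.03 and 4.30 CPM, log2 ratio 1.08, 0.48 to 1.72) and 81.0 kb upstream of Itga8, over Mindy3 (1.43 and 5.95 CPM, 2.06, 1.40 to 2.78). Both were named after their values were seen. The Sall1 flank had a median of 0.30 and 8 of 11 regions above 0, beside a locus at -0.03.

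The progenitor-like nuclei of the libraries sat in different clusters, and the loci also differed between clusters of the same library. In Enl-WT, cluster 10 had a summed level of early nephron epithelium markers of 565 CPM against 370 CPM in cluster 4. From cluster 4 to cluster 10, Cited1 went from 26.8 to 16.8 CPM, Meox1 from 55.2 to 33.7 CPM and Crym from 37.1 to 20.5 CPM. The ratios of cluster 10 to cluster 4 within Enl-WT were -0.68 (-1.01 to -0.35) for Cited1, -0.71 (-0.94 to -0.49) for Meox1, -0.85 (-1.14 to -0.57) for Crym and -0.54 (-0.82 to -0.27) for Uncx. Six2 differed less, at 72.0 and 62.0 CPM (-0.22, -0.39 to -0.04), and the intervals of Eya1, Osr1, Sall1 and Itga8 covered 0. In Enl-T1 the same marker sum was 541 CPM in cluster 0 and 495 CPM in cluster 5. Uncx had 16.4 and 28.9 CPM in clusters 0 and 5, and Crym had 17.0 and 28.7 CPM. The ratios of cluster 5 to cluster 0 within Enl-T1 were 0.82 (0.51 to 1.12) for Uncx and 0.76 (0.45 to 1.06) for Crym. Itga8 (0.42, 0.21 to 0.62), Meox1 (0.34, 0.15 to 0.54) and Eya1 (0.29, 0.10 to 0.47) were also higher in cluster 5, and the intervals of the other 4 loci covered 0.

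The comparison of libraries depended on which of these clusters were set against each other. Against cluster 4, cluster 0 was lower at all 9 loci with a median of -0.39, led by Uncx (-1.14, -1.39 to -0.88) and Crym (-1.13, -1.38 to -0.88). Cluster 5 against cluster 4 was lower at 8 of 9 with a median of -0.23, and cluster 0 against cluster 10 at 6 of 9 with a median of -0.25. Cluster 5 against cluster 10 had 4 of 9 below 0 and a median of 0.02, with Crym (0.48, 0.15 to 0.81) and Meox1 (0.81, 0.57 to 1.06) higher in Enl-T1. In the order given, the median of all genes with at least 200 counts was 0.02, -0.01, 0.00 and -0.02. The share of all genes below 0 was not computed for these pairings. Six2 was below 0 in all 4 pairings, from -0.43 to -0.13, with intervals that covered 0 in the pairings with cluster 10. When the embedding was corrected with mutual nearest neighbours, a cluster of 1569 Enl-WT with 1331 Enl-T1 nuclei formed, in which Six2 had 70.5 and 54.7 CPM (-0.36, -0.55 to -0.18), Cited1 25.8 and 17.7 CPM (-0.55, -0.88 to -0.22) and Itga8 65.4 and 51.5 CPM (-0.35, -0.54 to -0.15). In that mixed cluster the intervals of the other 6 loci covered 0, Uncx (-0.25, -0.52 to 0.01) and Crym (-0.12, -0.37 to 0.14) included. In the corrected cluster of 279 Enl-WT and 2611 Enl-T1 nuclei, Meox1 (0.595) was higher in Enl-T1. Six2 (-0.34), Uncx (-0.72, -1.16 to -0.26) and Itga8 (-0.49) were lower, and other intervals covered 0, with Cited1 at 0.42. In that of 577 and 167 nuclei only Meox1 (0.95, higher) had an interval clear of 0, with Cited1 at 0.29. Without correction, only Crym (0.81, 0.15 to 1.41, higher) had such an interval for the 1225 Enl-WT and 82 Enl-T1 nuclei of cluster 4. Where cluster 4 did not take the progenitor name, the class held 786 to 1121 Enl-WT nuclei, and Cited1 (0.09 to 0.47) and Meox1 (0.58 to 0.93) had higher levels in Enl-T1 while Uncx (-0.37 to -0.28) had lower ones. Under these settings Crym stood between -0.0044 and 0.16 and Six2 between -0.16 and 0.03.

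**Figure D4:**
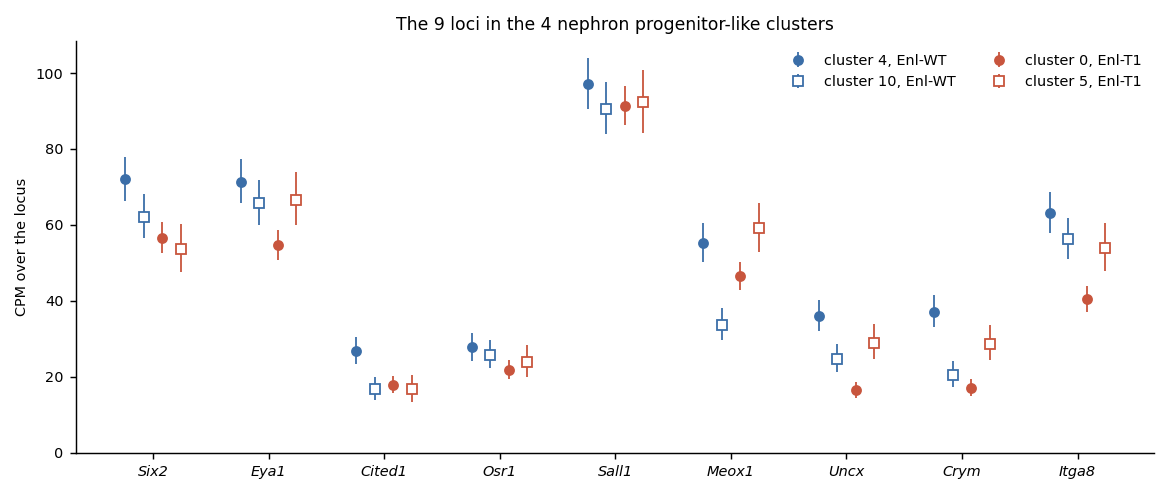
CPM over each of the 9 loci (y axis, linear from 0) in the 4 nephron progenitor-like clusters, 2 mostly of Enl-WT nuclei (blue) and 2 mostly of Enl-T1 nuclei (red), counting only the nuclei of the named library. Bars are 95% counting intervals. Uncx and Crym are lowest in cluster 0, at 16.4 and 17.0 CPM, and Cited1 stands above the other clusters in cluster 4, at 26.8 CPM.

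In the other lineages the 9 loci showed no common direction. In stroma-like nuclei, where the Cre also acts, 4 were below 0 and 5 above, with a median of 0.02, and 50.8% of all genes were below 0. Sall1 was lower there, and Eya1, Osr1 and Itga8 were higher, by intervals that excluded 0. The share of all genes with such an interval was not computed. None of the 9 loci was past 0.5 log2 in stroma-like nuclei, where 1.21% of all genes were lower and 1.63% higher by that much. None of the 26 regions with at least 200 counts was past 1 log2 there either, against 1.04% of regions lower and 1.62% higher. In ureteric epithelium-like nuclei, a lineage outside the Cre, the median was 0.09, with 3 loci below 0 and 6 above. All 9 intervals covered 0, but they were wide. Cited1 stood at -0.34 (-0.77 to 0.09) on 191 and 186 counts, beside -0.31 in progenitor-like nuclei. Uncx had 40 and 58 counts, under the minimum of 200. By 0.5 log2, 0.976% of all genes were lower and 1.48% higher. In endothelial-like nuclei the median was 0.01, with 4 loci below 0 and 5 above, and 1.75% of all genes were lower and 1.83% higher by 0.5 log2. Six2 stood at -0.29 (-1.03 to 0.40) there on 124 and 49 counts, and Uncx at -0.38 (-1.38 to 0.54) on 75 and 28 counts. Osr1 (10.1 and 19.4 CPM, 0.94, 0.33 to 1.55) and Sall1 (13.4 and 22.3 CPM, 0.74, 0.19 to 1.29) were higher in endothelial-like nuclei of Enl-T1, on 92 and 106 counts in that library. Of the 9 loci 4 had at least 200 counts in endothelial-like nuclei, Sall1 among them and Osr1 not.

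The loci were also read as shares of nuclei. After each nucleus was thinned to 2000 counts in shared regions, which left out 3 progenitor-like Enl-WT nuclei and 4 Enl-T1 ones, Six2 had a fragment in 6.59% (5.60 to 7.69%) of the Enl-WT progenitor-like nuclei and 5.61% (4.92 to 6.34%) of the Enl-T1 ones. These intervals overlapped, unlike those of the CPM. In endothelial-like nuclei the shares for Six2 were 1.24% and 1.13%. Before thinning they were 35.9% and 23.4% in progenitor-like nuclei, at median depths of 15793 and 9973.5 counts, and 7.58% and 4.54% in the endothelial-like class, where the median depths were 14975.5 and 8084 counts. For Uncx the thinned shares were 3.14% (2.48 to 3.97%) and 2.08% (1.66 to 2.55%), and for Sall1 9.29% and 9.30%. On average 0.445 of the 9 loci had a fragment in a thinned progenitor-like nucleus of Enl-WT and 0.392 in one of Enl-T1, against 0.198 and 0.216 in endothelial-like nuclei.

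Other genes of the progenitor network were measured alongside. Of 25 such genes with at least 200 counts, 15 were below 0 and 10 above in progenitor-like nuclei, with a median of -0.04, and 3 were lower by 0.5 log2 or more, beside 3.16% of all genes. These were Spock2 (88.0 and 56.6 CPM, log2 ratio -0.64), the R-spondin Rspo1 (100.4 and 68.3 CPM, -0.56) and Traf1 (64.9 and 44.7 CPM, -0.54), which all served to name the clusters. The highest were Hoxa11 (0.34), Six4 (0.26) and Mycn (0.23). Paralogues of the 9 genes had a median of -0.03 over 17 genes with 0 past 0.5 log2, from Itga9 (-0.19), Eya2 (-0.16) and Sall2 (-0.15) to Osr2 (0.33), Sall3 (0.28) and Sall4 (0.27). Among 10 nephron commitment genes 7 were above 0, beside 50.6% of all genes, with a median of 0.07. These 10 include all 9 early nephron epithelium markers, which also served in naming the clusters. By 0.5 log2 or more 1 of the 10 was lower and 1 higher, beside 3.16% and 2.25% of all genes. The cadherin Cdh6 had 43.8 CPM in Enl-WT and 91.4 CPM in Enl-T1 (1.06, 0.93 to 1.19), and Bmp2 was also among the highest (0.27), while Lhx1 (-0.69), Fgf8 (-0.41) and Wnt4 (-0.03) were lowest.

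Over the 14 profiles of a class in a library, the pairs of loci with the most similar levels were Six2 and Osr1 (Pearson r = 0.91 on log2(CPM + 1)) and Six2 and Eya1 (r = 0.85). Itga8 ran against Crym (r = -0.55) and Cited1 (r = -0.40). The profiles share libraries and depth, and the values are descriptions only. Of all protein-coding genes outside its own locus, those most like Six2 were Lor and Pthlh (r = 0.97 for both), and those most like Cited1 were Matn4 and Ngfr (0.96 for both). For Eya1 they were Draxin and Lmx1b (0.95 for both), for Osr1 Six3 (0.97) and Trpc4 (0.96), and for Sall1 Map2k5 (0.95) and Fgf10 (0.94). For Meox1 they were Lrrc3b and Hrh1 (0.93 for both), for Uncx Hrk (0.95), on the same chromosome, and Grin2a (0.94), for Crym Uroc1 and Sel1l3 (0.93 for both), and for Itga8 Lyve1 (0.96) and Hopx (0.93).

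Motif letters were searched on both strands in the central 300 bases of each region. The Six2-type letters GNAACNTGA were in 1 of the 35 windows of the 9 loci, a window of Itga8, against 4.85% of 110665 windows of all shared regions. The posterior HOX letters, CCATAAA or CAATAAA, which do not overlap each other, were in 5 of 35 against 10.9%, and the WT1 letters CTCCCAC in 3 of 35 against 10.4%. The TCF/LEF letters CTTTGAT and the OSR letters CAGTAGC were in 0 of 35, against 4.79% and 3.61%. Among 32851 RefSeq promoter windows of 250 bases the WT1 letters were in 8.25%, the OSR letters in 3.03% and the HOX letters in 6.51%. RefSeq promoters were found for 5 of the 9 genes, and Eya1, Osr1, Meox1 and Crym had no entry.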

How the data were processed

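Single-nucleus ATAC-seq was made from kidneys of Enl-WT and Enl-T1 embryos, 1 library each. Per the labels, reads were processed with Cell Ranger ATAC 2.1.0 on mm10. The authors deposited, for each library, its peaks, barcodes and a matrix of raw counts of cut sites per peak and barcode, not normalized, in which 1 fragment mostly gives 2 counts. Peaks were called in each library separately, so their number and width differ between libraries. The column of counts of each file belonged to its own sample, and 0 columns of other samples were present. The study's own filters on fragments, peaks and blacklisted regions, its integration and its tests over cells were set aside.

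A barcode was kept if it had 2000 to 100000 counts, and doublets were not removed. Peaks overlapping by 1 bp or more were joined into shared regions, which took 88.8% of all Enl-WT counts and 94.9% of all Enl-T1 counts. Nuclei were embedded by latent semantic indexing (components 2 to 30) over 110494 regions, without the 9 loci and their flanks, and clustered by the Leiden method at resolution 1 (scikit-learn 1.9.0, leidenalg 0.10.2). Of 26 clusters 21 were named by the marker list with the highest score, at a lead of 0.1 log2 over other lineages, if their leading genes did not contradict it. A tie was let pass. Cluster 4 was such a case, with 1 of its own markers and 1 marker of another class among its 10 leading genes. Cluster 0, of Enl-T1 nuclei, had the lowest progenitor score of the 4 progenitor-like clusters, at 0.59 with 4 raised markers, against 0.93 with 7 for cluster 4. Its 10 leading genes held 0 progenitor markers. No lead was asked for within the nephron lineage. Leading genes were ranked among those with at least 20 CPM, a choice made after seeing the data. CPM were scaled to the total of shared regions in the class and library. Intervals are exact Poisson intervals on fragments or exact binomial intervals, and cover counting error only. Ratios were summarised over genes or regions with at least 200 counts. The members, lists and alternatives were chosen with earlier results of these data known.

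All 9 members are named. Of other lists the 3 highest and 3 lowest ratios are named, of the regions of each member the start site, the highest and the lowest, and for likeness the 2 genes of highest r. Some genes that this rule or the marker lists take in are not reported here. Scripts were tested on simulated data. No test between groups was possible with 1 library each. Alternatives changed the clustering, the scaling (TMM factors from edgeR 4.0.16 among them), the regions and the filters. Sequences came from RefSeq on GRCm38.p6.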

Additional observations from a re-analysis of the deposited data

How the results depend on the processing

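No paired analysis was possible because each group had 1 library and no result came from a test, and for the same reason no replicate could be left out. The median log2 ratio of the 9 loci in nephron progenitor-like nuclei was -0.28, and over 16 alternatives it was below 0 in 15. It moved to 0.020 with components 2 to 15 and to -0.091 with doublets removed, both of which left Enl-WT cluster 4 out of the class, to -0.41 with all peaks of each library, and to -0.13 per kb of peak. In place of 1 locus past 0.5 log2 there were 2 with the member loci kept, 3 from 5000 counts, 2 at Leiden resolution 0.5, 4 with all peaks, 2 at start sites alone and 0 per kb. An unchanged count did not always mean Uncx, which had no value at a reciprocal overlap of 80%. Where Enl-WT cluster 4 was left out, Uncx was not past 0.5 log2, while Meox1 was, with the higher level in Enl-T1. In place of 3 regions past 1 log2 there were 0 with doublets removed, 0 at start sites alone, 1 per kb, and 1 with leading genes from 5 CPM, an alternative chosen after seeing the data. In place of 6 flanking regions there were 16 with components 2 to 15 and 2 at a reciprocal overlap of 80%. Per kb, 265 genes were lower and 1099 higher by 0.5 log2, against 516 and 368, and 616 were higher with components 2 to 15. The cause of the other moves was not tested. Itga8 was below 0 in all 16 alternatives and Uncx in all 15 that gave it a value, since no Uncx region reached 80% overlap. Flanking regions had no value at start sites alone, and levels by class none with all peaks. Elsewhere the 16 alternatives put the median of the loci at -0.02 to 0.29 for stroma, at -0.0024 to 0.24 for the ureteric epithelium class, and at -0.10 to 0.26 for endothelium. In endothelial-like nuclei, which were 752 and 595, 5 of the 9 loci had under 200 counts.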
